A study of Homo sapiens with 2 samples.

Results

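E proteins are transcription factors of the basic helix-loop-helix class that bind DNA as dimers at E-boxes, short sites of the form CANNTG. ID proteins have the helix-loop-helix dimerization surface but no basic DNA-binding region, so an E protein paired with an ID protein cannot bind DNA. In thymocytes E proteins drive T-lineage commitment and receptor gene rearrangement, and the balance between them and ID proteins is reset by receptor signals. The 6 genes described here are TCF3, TCF4 and TCF12, which encode the E proteins, and ID1, ID2 and ID3, which encode inhibitors. TCF4 is the basic helix-loop-helix gene, not the Wnt pathway gene TCF7L2 that shares this alias.

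Members were the peaks of histone H3 lysine 27 acetylation (H3K27ac), which marks promoters and enhancers in use, that overlapped a gene body or the 20 kb on either side of it. The rule used position alone and found 35 of the 52203 peaks, 23 at the E protein genes and 12 at the ID genes. The study mapped H3K27ac in 1 ChIP library of LOUCY, a cell line of human T-cell acute lymphoblastic leukaemia (T-ALL) grown in culture without a stated treatment, and sequenced 1 input DNA library of the same line. LOUCY is a single leukaemia line and is used as a model of immature T-ALL. Depth was 54357332 tags kept of 62626946 for the ChIP and 71932640 tags kept of 74212738 for the input. There were no replicates, so every value below describes this pair of libraries, without a replicate check. Fold is the authors' enrichment of ChIP over the local input level. Peaks were called in broad mode with 1 fold for the whole peak, so the fold of a wide peak need not be its height at any 1 point.

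The start regions of these genes are shown first, because the results turn on which of them carried a peak. Each line is the RefSeq promoter of GRCh38.p14, from 250 bases before to 50 bases after the start, read 5′ to 3′ on the gene's strand. Capitals mark CG dinucleotides, the sites of DNA methylation, which are dense in most promoters of widely active genes. TCF3 lies at chr19:1652566-1652865 on the minus strand. For TCF4 the start furthest 5′ (start 1 of 10, chr18:55635908-55636207, minus strand) and start 4 (chr18:55588143-55588442) are given. TCF12 is the first of 5 starts (chr15:56917840-56918139, plus strand). ID1 (chr20:31605039-31605338) and ID2 (chr2:8681806-8682105) are on the plus strand, and ID3 (chr1:23559452-23559751) is on the minus strand.
TCF3: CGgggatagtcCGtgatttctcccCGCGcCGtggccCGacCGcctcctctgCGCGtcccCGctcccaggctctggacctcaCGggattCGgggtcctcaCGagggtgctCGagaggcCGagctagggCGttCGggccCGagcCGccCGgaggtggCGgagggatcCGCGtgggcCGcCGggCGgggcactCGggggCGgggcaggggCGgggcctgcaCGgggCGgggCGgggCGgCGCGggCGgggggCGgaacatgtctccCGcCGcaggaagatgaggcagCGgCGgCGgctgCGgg
TCF4 start 1: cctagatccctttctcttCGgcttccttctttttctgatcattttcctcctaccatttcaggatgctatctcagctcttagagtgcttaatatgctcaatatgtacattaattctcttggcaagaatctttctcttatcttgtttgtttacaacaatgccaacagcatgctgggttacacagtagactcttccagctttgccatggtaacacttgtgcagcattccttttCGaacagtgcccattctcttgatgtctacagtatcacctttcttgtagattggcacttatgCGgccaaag
TCF4 start 4: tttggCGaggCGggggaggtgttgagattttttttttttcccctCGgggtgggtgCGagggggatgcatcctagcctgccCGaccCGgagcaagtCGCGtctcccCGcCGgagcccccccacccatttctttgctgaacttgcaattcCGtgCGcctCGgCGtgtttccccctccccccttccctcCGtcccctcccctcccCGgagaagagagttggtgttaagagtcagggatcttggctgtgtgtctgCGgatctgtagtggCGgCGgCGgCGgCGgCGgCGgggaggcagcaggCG
TCF12: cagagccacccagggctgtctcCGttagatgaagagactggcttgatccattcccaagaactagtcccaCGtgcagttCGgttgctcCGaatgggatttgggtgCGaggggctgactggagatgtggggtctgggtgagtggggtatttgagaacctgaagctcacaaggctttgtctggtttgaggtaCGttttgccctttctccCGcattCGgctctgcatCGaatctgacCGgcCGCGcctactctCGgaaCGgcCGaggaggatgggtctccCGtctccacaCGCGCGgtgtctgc
ID1: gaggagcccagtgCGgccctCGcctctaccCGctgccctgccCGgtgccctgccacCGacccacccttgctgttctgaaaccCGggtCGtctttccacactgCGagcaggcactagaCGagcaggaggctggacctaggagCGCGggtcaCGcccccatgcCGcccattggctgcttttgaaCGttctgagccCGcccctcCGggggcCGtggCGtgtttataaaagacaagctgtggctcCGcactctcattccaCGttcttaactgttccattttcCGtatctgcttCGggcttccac
ID2: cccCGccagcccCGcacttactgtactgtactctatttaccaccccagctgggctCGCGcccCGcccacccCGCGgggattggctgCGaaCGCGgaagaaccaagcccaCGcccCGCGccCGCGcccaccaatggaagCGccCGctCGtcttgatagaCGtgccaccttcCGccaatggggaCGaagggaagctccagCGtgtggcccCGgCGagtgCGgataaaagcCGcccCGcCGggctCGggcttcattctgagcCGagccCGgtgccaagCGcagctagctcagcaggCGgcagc
ID3: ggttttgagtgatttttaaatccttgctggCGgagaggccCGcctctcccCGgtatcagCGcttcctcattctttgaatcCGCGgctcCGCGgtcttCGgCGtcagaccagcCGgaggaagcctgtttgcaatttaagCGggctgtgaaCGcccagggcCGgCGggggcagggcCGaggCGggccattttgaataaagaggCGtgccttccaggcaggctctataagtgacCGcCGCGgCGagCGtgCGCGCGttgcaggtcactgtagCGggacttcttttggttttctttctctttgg

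The TCF4 start furthest 5′ had 3 CG dinucleotides and 41.3% G and C, the lowest of the first starts of the 6 genes in both measures. Low values were common among the later TCF4 starts, since starts 5 to 8 and 10 had 1 to 6 CG dinucleotides and 35.7 to 48.3% G and C. Start 9 was higher, with 19 and 50.3%. Start 3 had 9 and 40.3%, while start 2 had 28 and 63.7% and start 4 had 25 and 65.3%. TCF3 had 43 and 78.3%. ID2 had 33 CG dinucleotides, ID3 had 27, ID1 had 22 and the first start of TCF12 had 19. The median over all 35116 RefSeq promoters was 14, with 58.7% G and C. In the gene table the first TCF4 window lies inside RPL21P126, a ribosomal protein pseudogene.

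The E-box letters CANNTG, a pattern that matches alike on both strands, were searched in each of the 19 start windows of the 6 genes. TCF3, ID1 and ID3 held none in their windows. ID2 held CAGCTG 205 bases before its start, a form that E proteins are known to bind. The first start of TCF12 held CACGTG 183 bases before it, and start 3 of TCF4 held it 49 bases before. Of all promoters in the table, 68.7% held CANNTG and 17.9% held CAGCTG at least once. The letters GGGCGG, searched on both strands, occurred 9 times at TCF3 and in 45.0% of all promoters. CCAAT, also on both strands, occurred 3 times at ID2 and in 34.6% of all promoters. These matches describe letters and say nothing of binding.

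H3K27ac was found at the 5′ end of the gene body in 5 of the 6 genes, and the exception was TCF4. A peak counted as lying at the start if it came within 1 kb of the 5′ end of the gene body. The order of the start peaks by fold was TCF3 with 16.7, TCF12 with 7.95, ID3 with 6.20, ID2 with 5.85 and ID1 with 3.22. TCF12 exceeded ID3 by a ratio of 1.28. ID3 and ID2 differed by a ratio of only 1.06, which has no replicate spread to be set against. Of the 38 protein-coding genes in a small hg19 gene sample that is shipped with an R package, 26 had a peak within 1 kb of any listed start, with a median fold of 7.01. How that sample was drawn is not given, so it is a loose yardstick. The 6 genes were counted at the 5′ end only, which is a stricter rule. Counted at any listed start, TCF4 would also have a peak, with a fold of 4.37 at the distance of its starts 2, 3 and 4. Only 1 of those 26 was higher than TCF3, 8 were higher than TCF12, 20 were higher than each of ID3 and ID2, and 24 were higher than ID1.

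**Figure D1:**
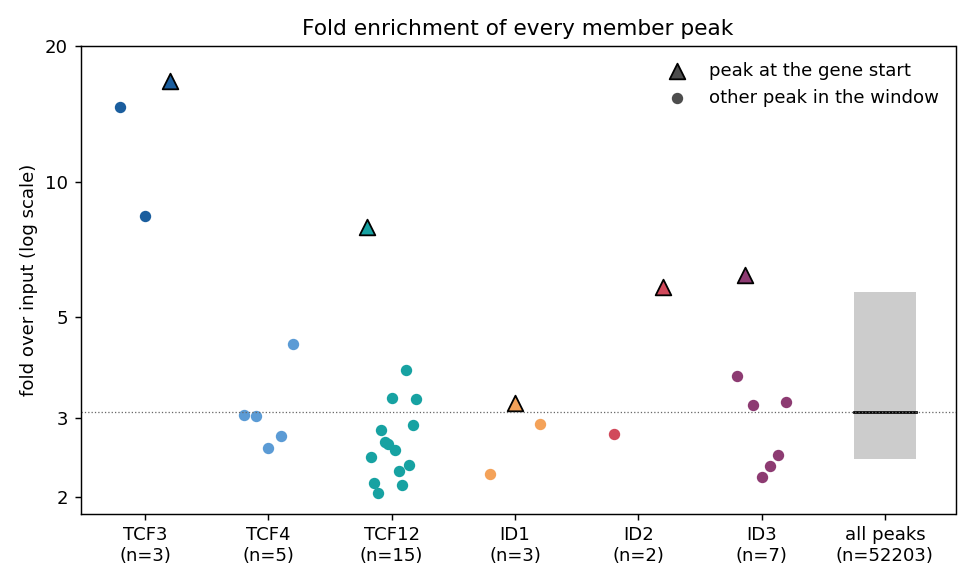
Fold over input (log scale) of each of the 35 peaks by gene window, with triangles for gene start peaks and dots for the others. The bar at the right is the interquartile range of all 52203 peaks with its median of 3.08 (dotted line). The TCF3 start peak at 16.7 is the highest of the 35, and TCF4 has no triangle.

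Away from the starts the folds were mostly low, with a median near that of all peaks. The 30 other peaks had folds of 2.04 to 14.6, with a median of 2.75, beside 3.08 over all peaks. The sets are unlike, since all peaks include those at gene starts. Of all 35 peaks, those at the starts included, 2 had a fold of at least 10, against 5.21% of all peaks in the genome. Both were in the TCF3 window. A fold of at least 6 was reached by 5 of 35, against 23.2% of all peaks, and 19 of 35 had a fold below 3, against 48.2%. A width of at least 5000 bp was reached by 5 of 35, against 14.1%. The median fold was 2.88 in the windows and 3.08 over all peaks.

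TCF3, whose products are regulators of both B and T lymphocyte development, carried the strongest peak. It spanned chr19:1649729-1653787 in hg19, 4059 bp with a fold of 16.7, and ranked 70 of 52203. It reached 1.79 kb upstream of the gene's 5′ end and 2.27 kb into the gene. The remaining 40.7 kb of the gene body held no peak. The other peaks of the window lay past the 3′ end. That at chr19:1603973-1606788 had a fold of 8.40 over 2816 bp, and that at chr19:1590088-1593590 had a fold of 14.6 over 3503 bp, rank 210. UQCR11, a respiratory chain subunit gene, and MBD3, a gene of the NuRD chromatin complex, follow TCF3 on that side in the gene table, and these peaks were not assigned to a gene. Upstream, the next peak was 92.7 kb from the start peak. Peaks covered 12.5% of the window.

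TCF12 encodes HEB, the E protein best known as the dimer partner in thymocytes. Its start peak (chr15:57209083-57216698) was 7616 bp wide, reached 5.70 kb into the gene and ranked 6582 by fold. The gene had the most peaks of the 6, with 15 in a window of 410 kb or 36.6 per Mb, against 18.5 per Mb on chromosome 15. By density it came after ID3 (167 per Mb), ID1 (73.2) and ID2 (46.5), whose windows are 41 to 43 kb. TCF3 was close, with 36.1 per Mb. The other 14 were weak, with folds of 2.04 to 3.82. Those nearest the start, at 9.94 to 11.1 kb and 12.3 to 14.0 kb inside it, had folds of 2.46 and 2.15. A group lay 57.2 to 71.4 kb inside, among them a peak of 5404 bp with a fold of 2.64, and another lay 197 to 217 kb inside, led by a peak of 4580 bp with a fold of 3.32. The strongest peak after the start was near the 3′ end (chr15:57575204-57577538, fold 3.82). In all, 11 of the 15 had a fold below 3, and the start peak held 44.9% of the window's summed fold times width.

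TCF4 encodes the E protein that is prominent in plasmacytoid dendritic cells and B cells. Its gene body is the longest of the 6, at 413 kb, and it had 5 peaks, or 11.04 per Mb against 13.2 per Mb on chromosome 18. No peak lay within 45.4 kb of its 5′ end. The strongest, at chr18:53253400-53257590, was 4191 bp wide with a fold of 4.37 and ranked 17864. It lay 45.4 to 49.6 kb inside the gene. Of the 10 RefSeq starts, starts 2, 3 and 4 lie 46.1, 47.3 and 47.8 kb inside start 1. These distances were measured in GRCh38 and the peak's in hg19, and no position was carried from one build to the other. The peak was thus at the distance of 3 internal starts and not at that of the first.

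The other 4 TCF4 peaks were 588 to 1967 bp wide with folds of 2.57 to 3.04. They lay 146 to 147 kb, 158 kb, 281 to 283 kb and 296 to 297 kb inside the gene, and none was within 1 kb of the distance of a listed start. The surroundings were also bare. From the strongest peak it was 520 kb to the next peak upstream, and from the peak furthest 3′ it was 389 kb to the next one downstream. The 5 peaks were the only ones in a stretch of 1161 kb. Peaks covered 1.97% of the TCF4 window, the lowest share of the 6, against 3.63% of chromosome 18.

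**Figure D2:**
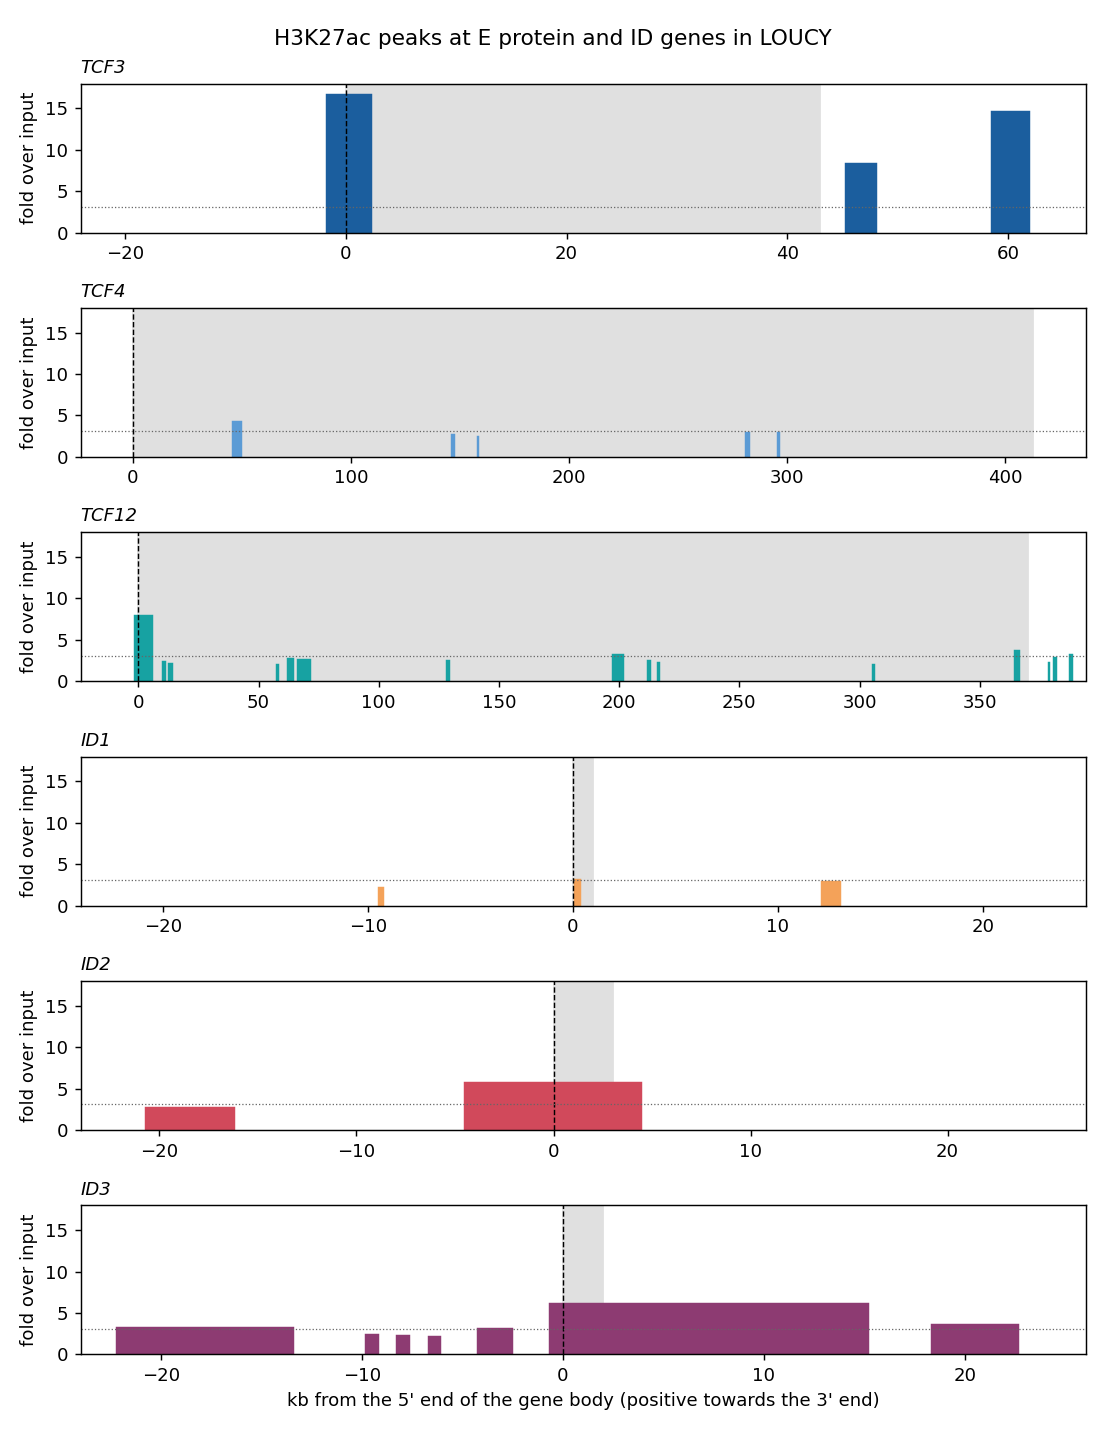
Fold over input of each peak (bar height) against distance in kb from the 5′ end of the gene body, 1 panel per gene, with bar width to scale, the gene body shaded and the median of all peaks (3.08) as a dotted line. TCF3 and TCF12 have their highest bar at the start, the highest bar of TCF4 is 45.4 kb or more inside the gene, and the bars of ID2 and ID3 are wider than the genes.

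Among the inhibitors, ID3 carried the widest mark. ID3 is induced by antigen receptor signals in T-cell precursors. Its start peak (chr1:23870798-23886719) spanned 15922 bp, rank 841 by width, and its fold of 6.20 ranked 11509. It covered the whole gene of 2 kb, began 0.719 kb upstream of it and ran 15.2 kb downstream of the start. The window held 6 more peaks with folds of 2.22 to 3.71, of which 5 lay upstream. The widest of them, 8790 bp with a fold of 3.25, lay 13.4 to 22.2 kb upstream. Together the peaks covered 71.2% of the 42 kb window. None of the 38 genes in the sample had a higher share, measured in the same way, and the highest of them was 56.7%. Their windows were not matched to that of ID3 in length. With only peaks of a -log10 q of at least 10, the ID3 share was 37.9%, and the 38 genes were not recounted that way.

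ID2, which restrains E proteins in natural killer and other innate lymphoid cells, had 2 peaks. The start peak (chr2:8817444-8826458) spanned 9015 bp at a fold of 5.85, rank 12578. It covered the gene of 3 kb and extended about evenly, 4.56 kb upstream and 4.46 kb downstream of the start. It held 80.9% of the window's summed fold times width. The other peak, 16.2 to 20.7 kb upstream, was 4521 bp wide with a fold of 2.76. ID2-AS1, an antisense RNA gene, is the nearest listed gene on that side. Downstream there was no further peak for 119 kb. Peaks covered 29.7% of the window, and 3 of the 38 sample genes had a higher share.

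ID1, an inhibitor studied mainly in progenitor, endothelial and tumour cells, had 3 peaks, all narrow. Its start peak (chr20:30193038-30193374) spanned 337 bp at a fold of 3.22, rank 24639, beside a median fold of 3.08 over all peaks. The others had folds of 2.25 (232 bp, 9.28 to 9.51 kb upstream) and 2.91 (953 bp, 12.1 to 13.0 kb downstream). Peaks covered 3.71% of the window, and 28 of the 38 sample genes had a higher share. The start windows of ID1, ID2 and ID3 were all above the median of all promoters in CG count, while the start peak of ID1 was the narrowest of the 5.

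**Figure D3:**
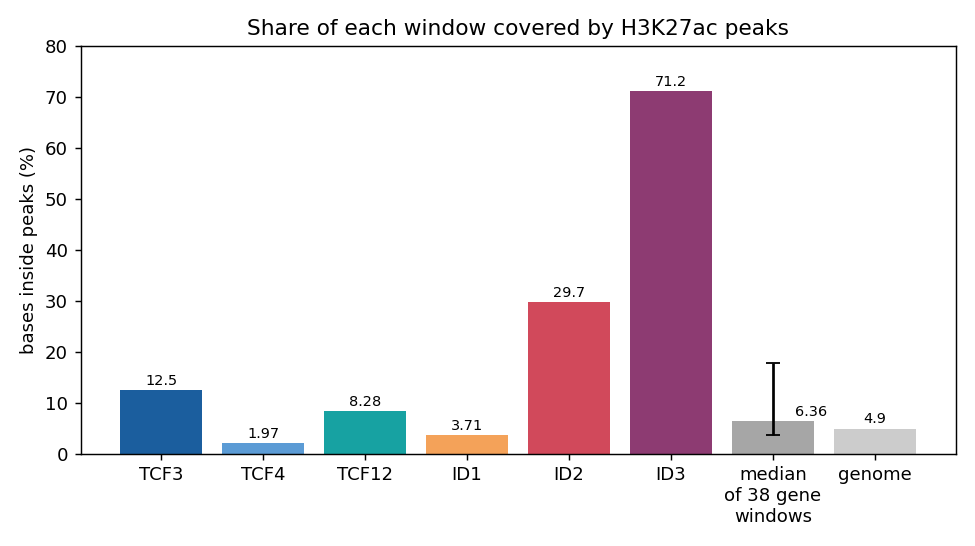
Share of bases inside H3K27ac peaks (%) in each gene window, in the windows of 38 sample genes (median, with a bar for the interquartile range) and in the genome. ID3 at 71.2% and ID2 at 29.7% are above the upper quartile of 17.7%, while TCF4 at 1.97% is below the lower quartile of 3.68%.

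At the starts the order of the peaks by width differed from that by fold. The TCF3 start peak was the highest at 16.7 and only 4059 bp wide, while the ID3 start peak was the widest at 15922 bp with a fold of 6.20. TCF12 and ID2 lay between, at 7616 and 9015 bp. ID1 was last in both, with a fold of 3.22 and 337 bp. Since windows are short for ID genes and long for TCF4 and TCF12, shares of a window mix gene length with the mark. Over the gene bodies alone, peaks covered 100% of ID2 and ID3, 33.7% of ID1, 7.69% of TCF12, 5.28% of TCF3 and 2.16% of TCF4.

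**Figure D4:**
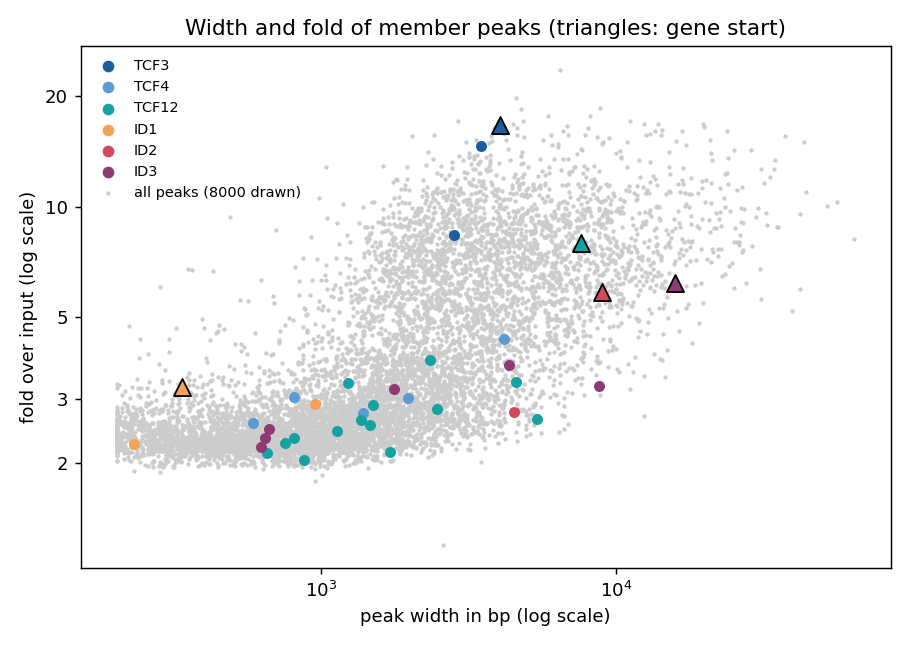
Width (bp) and fold over input of the 35 member peaks, coloured by gene, on log scales, with triangles for gene start peaks and 8000 randomly drawn peaks in grey. The TCF3 start peak is at the top (16.7, 4059 bp), those of ID2 and ID3 are wider and lower, and that of ID1 is among the narrow weak peaks at 337 bp.

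The 19 starts listed for the 6 genes were then divided by whether a peak lay within 1 kb of the same distance from the 5′ end. There were 11 with such a peak and 8 without. Those with a peak had 9 to 43 CG dinucleotides (median 28), and those without had 1 to 19 (median 2.5). Their G and C content was 40.3 to 78.3% and 35.7 to 50.3%, so the groups overlapped in both measures. CANNTG occurred in 3 of the 11 and in 7 of the 8, against 68.7% of all promoters. Of the 11 with a peak, 3 are at TCF4 and 4 at TCF12. Those without a peak are all at TCF4, except start 5 of TCF12, so the contrast mixes the presence of a peak with the gene. Starts of 1 gene share peaks and neighbourhood, so they are not independent, and the division was made with the peaks in view.

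Peaks were joined within 12.5 kb into 25510 domains, of which 1421 were large (those in the steep end of the curve of summed fold times width by rank), to see whether a gene lay in one of the regions with the most H3K27ac. Of the domains that held a start peak or, for TCF4, its strongest peak, only that of ID3 was large. It spanned 157 kb with 20 peaks and ranked 53. Its highest fold, 12.7, belonged to a peak of 11663 bp (chr1:23848819-23860481) that lay 23.5 kb beyond the 3′ end of ID3, outside the window. On that side the gene table lists a noncoding RNA gene and then E2F2, a cell cycle transcription factor gene. On the other side, 27.2 kb upstream of the gene, a peak of 29301 bp had a fold of 11.8. The rank therefore rests on more than ID3. The domain of the ID2 start peak ranked 2179 with 4 peaks over 33.4 kb, that of TCF3 ranked 3282, that of TCF12 ranked 3324, that of the strongest TCF4 peak ranked 10621 and that of ID1 ranked 18165.

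Strong peaks also lay just beyond the 20 kb limit at ID1 and TCF12. A peak 31.0 kb upstream of ID1 had a fold of 9.18, and a peak 29.1 kb beyond the 3′ end of TCF12 (chr15:57610134-57618114, 7981 bp) had a fold of 14.0, rank 318, above the fold of the TCF12 start itself. LINC00926, a long noncoding RNA gene, is the next gene on that side of TCF12. That peak and the peaks at the 3′ end of TCF12 were joined in a domain of 57.6 kb and 9 peaks that ranked 1395. Upstream of TCF12, a peak 30.6 kb away had a fold of 9.65. At ID2 the nearest outside peak, 21.7 kb upstream, had a fold of 5.90, beside 5.85 for the start peak.

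The denominator of the fold varied between windows. It was read back from each peak as the input level at which its fold has its deposited p-value under a Poisson distribution. The median of this implied level was 5.43 at TCF3, 6.20 at TCF4, 7.82 at TCF12, 4.82 at ID1, 6.32 at ID2 and 6.49 at ID3, against 6.34 over all peaks. With fold and input level combined, the implied ChIP pileup was 105 at the TCF3 start, 75.4 at TCF12, 59.5 at ID3, 47.4 at ID2, 32.7 at the strongest TCF4 peak and 24.96 at ID1. This order equals that by fold. The pileup was computed from the same fold, so the match is not a separate check.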

How the data were processed

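H3K27ac ChIP-seq and input DNA of LOUCY were available as 1 peak list, called on 1 library of each. Bowtie2, MACS2 and the hg19 build are named in the submitters' processing notes. No Bowtie2 version is given in the sources used here. Per the file headers, the authors called peaks with MACS version 2.1.0.20140616 in broad mode, with the ChIP library against input, 1 tag kept per position and a q-value cutoff of 0.05. The list nevertheless ran to a -log10 q of 1.01, so some listed peaks have a q-value above that cutoff. Among them is the weakest ID1 peak, with a -log10 q of 1.29. Each peak has 1 deposited fold enrichment, which is the ratio of ChIP signal to local input, and 1 deposited p-value and q-value, both as -log10. All 52203 deposited pileup values were negative, so that column was left out. The deposited positions and widths were used as given.

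The members and gene lists were chosen with earlier results of these data known. All 6 genes are described, and every peak in their windows is counted, some only within a range of folds. Named singly were the gene start peak, the strongest and the widest peak of each window, and any peak with a fold of at least 10. Gene bodies were known to the nearest 1 kb, strands came from the RefSeq promoter table (GRCh38.p14), in which all 6 symbols matched, and the RefSeq gene table gave neighbouring genes. The sample of 38 hg19 genes for comparison was taken from the example database of UCSC genes that GenomicFeatures (R) installs, and chromosome lengths from GenomeInfoDb. No hg19 sequence or full annotation was used, so peaks were not assigned to exons, introns or UTRs. Of 31 further pathway genes listed, 0 had an hg19 position here. The T-ALL label was likewise not checked against lineage markers. Peaks were joined within 12.5 kb into domains, ranked by summed fold times width, and a domain was large past the point where the rank curve on the unit square has a slope of 1.

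The implied input level is the control level at which a peak's fold has its Poisson p-value. It is approximate for broad peaks. The calculation was run on values simulated with the same formula, which checks the solving step and not whether the formula holds for broad peaks. Alternatives were other flanks, stricter thresholds, other overlaps and other domain rules. With 1 library per group no test was made, no p-value was computed, and values carry no replicate error. The software was Python 3.11.15 (scipy 1.17.1, pandas 2.3.3, numpy 2.4.6, matplotlib 3.10.9).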

Additional observations from a re-analysis of the deposited data

How the results depend on the processing

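The 35 peaks fell to 21 without the flanks, which also left out the peaks past the 3′ end of TCF3, with folds of 14.6 and 8.40. They fell to 15 once the -log10 q had to reach 5, and to 7 once it had to reach 10 or the fold had to reach 4. With flanks of 50 kb there were 51. Peaks lying mostly inside numbered 35, and joining within 1 kb left 33. The covered share of the 6 windows, 9.09%, was 5.41% without flanks, 11.3% with flanks of 50 kb and 4.40% with a -log10 q of 10 or more. At that last cutoff it was 37.9% at ID3, 21.0% at ID2, 12.5% at TCF3, 1.86% at TCF12, 0.925% at TCF4 and 0% at ID1. The highest fold of each window was equal without flanks and for peaks lying mostly inside. With flanks of 50 kb it became 14.0 at TCF12, 9.18 at ID1, 5.90 at ID2 and 12.7 at ID3, all from peaks outside the 20 kb, and stayed 16.7 at TCF3 and 4.37 at TCF4. The best-ranked domain at TCF12, large at rank 1395, was no longer large with joining within 5000 bp (3216), by summed width (1760) or with a -log10 q of 10 or more (3584). That at ID2, rank 2179, was large by summed width (1496). The cause was not tested. ID3 stayed large under all 3 of these, at ranks 22, 48 and 431. No paired analysis was possible because each group held 1 library. Depth sets the floor of the input level at 4.11. A -log10 q below 5 was found for 20 of the 35 peaks, against 26614 of all 52203 peaks. With a -log10 q of 10 or more, the TCF3 window kept all 3 peaks, of which 2 lay past the 3′ end of the gene. TCF12 kept 1 of 15, ID3 1 of 7, TCF4 1 of 5, ID2 1 of 2 and ID1 0 of 3. The share of all peaks that pass a -log10 q of 10 or a fold of 4 is not given here, so those drops have no genome-wide yardstick.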
